A study of Homo sapiens with 16 samples.

Results

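The genes described here encode the core of Polycomb repressive complex 2 (PRC2) and the machinery that writes, copies and removes DNA methylation. They are EZH2, EED and SUZ12, DNMT1, UHRF1 and HELLS, DNMT3A and DNMT3B, and TET2 and TET3. The 10 genes were taken by symbol from a count table of 23354 genes, and all 10 passed the filter on low counts that left 14215 genes for testing. RNA was sequenced from 16 libraries of the human multiple myeloma lines MM1S, which responds to glucocorticoid, and MM1R, its glucocorticoid-resistant counterpart. In each line there were 4 treatments of 48 h with 2 libraries each, namely a vehicle control (Veh), the inhibitor TAK-981 (TAK), dexamethasone (Dex) and both drugs (combo). TAK-981 was dosed at 0.1 μM and dexamethasone at 1 μM, also when combined. TAK-981 inhibits the SUMO activating enzyme, the first enzyme in attaching the small protein SUMO to other proteins, and Dex is a synthetic glucocorticoid. The comparisons ask how each drug and their combination changed these genes, and whether the lines differed. Each genotype is represented by 1 established line, and the labels do not say whether the 2 libraries of a group came from separate cultures, so the p-values measure the spread between libraries, which may be technical.

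PRC2 places methyl groups on lysine 27 of histone H3, a mark of silenced genes. EZH2 is its catalytic subunit, and EED and SUZ12 are needed for its activity and stability. DNMT1 copies DNA methylation onto the new strand after replication, guided by UHRF1, which reads half-methylated CpG sites, and aided by the chromatin remodeller HELLS. DNMT3A and DNMT3B methylate unmethylated DNA, and TET2 and TET3 oxidise methylcytosine, which starts its removal. In lymphoid cells EZH2, DNMT1 and UHRF1 are characteristic of dividing cells, and EZH2 and TET2 are recurrently mutated in blood cancers.

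Libraries held 15707587 to 24796539 counts on genes. The 8 plasma cell markers summed to 3370 to 6135 CPM (counts scaled to library size, in counts per 1e+06) in every library. The label B lymphoblast was not matched by the B cell markers MS4A1 and PAX5, which reached at most 0.124 and 0.542 CPM in any library. NR3C1, the glucocorticoid receptor gene, lay between 239 and 357 CPM in MM1S libraries and between 16.7 and 20.5 CPM in MM1R libraries. The libraries MM1S TAK replicate 1 and 2 differed from each other more than those of any other group did (chi-square per degree of freedom 21.3, against 2.09 to 18.9 elsewhere), and results that rest on 1 of them are marked as such. Because whole cultures were sequenced, fewer dividing cells and less RNA of a gene per cell cannot be told apart.

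Counts were made on hg19, on which EZH2 lies at chr7:148504464-148581441, EED at chr11:85955806-85989785 and SUZ12 at chr17:30264044-30328057. DNMT1 lies at chr19:10244022-10305755, UHRF1 at chr19:4909510-4962165 and HELLS at chr10:96305543-96361856. DNMT3A lies at chr2:25455830-25565459, DNMT3B at chr20:31350191-31397162, TET2 at chr4:106067032-106200960 and TET3 at chr2:74213531-74335302. EZH2, DNMT1 and DNMT3A are on the minus strand and the others on the plus strand. Values are totals over all exons of a gene. SUZ12 has a partial copy, SUZ12P1, that the table counts separately at up to 470 counts, so reads may have been split between them.

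Promoter stretches are shown for the genes that held an E2F word, the DNA letters read by E2F factors at many replication genes, a feature that the choice of genes did not use. Promoter windows, from 250 bases before to 50 bases after each start, were taken from RefSeq on GRCh38.p14, a different build from the counts. The E2F word was searched in 4 spellings, TTTCGCGC, TTTGGCGC, TTTCCCGC and TTTGCCGC, on both strands. It was present in 5 of the 10 genes, EZH2, SUZ12, DNMT1, UHRF1 and HELLS, and in 6 of the 20 windows of the 10 genes together. Among the 10518 tested genes with a window 6.57% held it, as did 3.31% of all 35116 windows. These are the stretches of 120 bases that hold it, 5′ to 3′, with the E2F word in capitals:
EZH2, chr7:148884272-148884391, minus strand: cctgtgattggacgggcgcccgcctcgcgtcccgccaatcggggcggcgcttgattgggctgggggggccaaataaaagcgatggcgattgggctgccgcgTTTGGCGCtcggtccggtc
SUZ12, chr17:31936798-31936917, plus strand: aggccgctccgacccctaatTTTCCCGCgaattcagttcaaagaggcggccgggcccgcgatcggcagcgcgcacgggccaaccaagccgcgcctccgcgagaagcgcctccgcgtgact
DNMT1, chr19:10194934-10195053, minus strand: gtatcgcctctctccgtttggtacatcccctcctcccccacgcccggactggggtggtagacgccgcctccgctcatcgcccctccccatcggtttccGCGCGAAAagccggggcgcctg
UHRF1, chr19:4909401-4909520, plus strand: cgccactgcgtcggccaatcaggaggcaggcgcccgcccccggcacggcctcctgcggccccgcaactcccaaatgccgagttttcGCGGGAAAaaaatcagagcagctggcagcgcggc
UHRF1 second start, chr19:4909964-4910083, plus strand: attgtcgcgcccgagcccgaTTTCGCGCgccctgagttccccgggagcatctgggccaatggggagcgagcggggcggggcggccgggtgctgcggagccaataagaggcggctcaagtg
HELLS, chr10:94545688-94545807, plus strand: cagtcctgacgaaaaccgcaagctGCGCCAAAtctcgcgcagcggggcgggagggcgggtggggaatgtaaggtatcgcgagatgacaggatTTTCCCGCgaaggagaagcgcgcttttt
Positions are those of the leftmost base of the word. In EZH2 it began at base 2 of the transcript, and in DNMT1 it began 2 bases before the start. UHRF1 held it 14 bases before one start and 160 bases before another, and HELLS held it 76 and 8 bases before its start, on opposite strands. SUZ12 had its match 189 bases before the start. None of the windows of EED, DNMT3A, DNMT3B, TET2 or TET3 held one of these spellings. DNMT3B had only 1 window, chr20:32779602-32779901, with 3 CpG sites. Windows were matched to genes by symbol, so whether this one covers the start of the counted gene was not checked. The MYC E-box CACGTG, by contrast, occurred in DNMT3A, TET2 and TET3 among the 10 and in 12.6% of tested genes. CCAAT, the NF-Y word, was in 7 of the 10 and in 43.4% of tested genes, and EZH2 held 4 copies. These matches describe letters in a window and were not tested as sites.

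Under vehicle the levels spanned a wide range. Per kilobase of transcript, the means in MM1S Veh ran from DNMT1 at 47.9 CPM per kb, through HELLS at 36.6, SUZ12 at 36.2 and EZH2 at 33.8, to EED at 12.8 and UHRF1 at 10.1. The remaining 4 genes were lower, with TET3 at 6.69 CPM per kb, TET2 at 6.25, DNMT3A at 4.40 and DNMT3B at 2.88. DNMT1 was above 96.6% of tested genes in CPM in MM1S Veh and DNMT3B above 40.2%. In MM1R Veh the top 4 were again DNMT1, SUZ12, EZH2 and HELLS, at 60.3, 42.9, 40.5 and 40.0 CPM per kb.

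**Figure D1:**
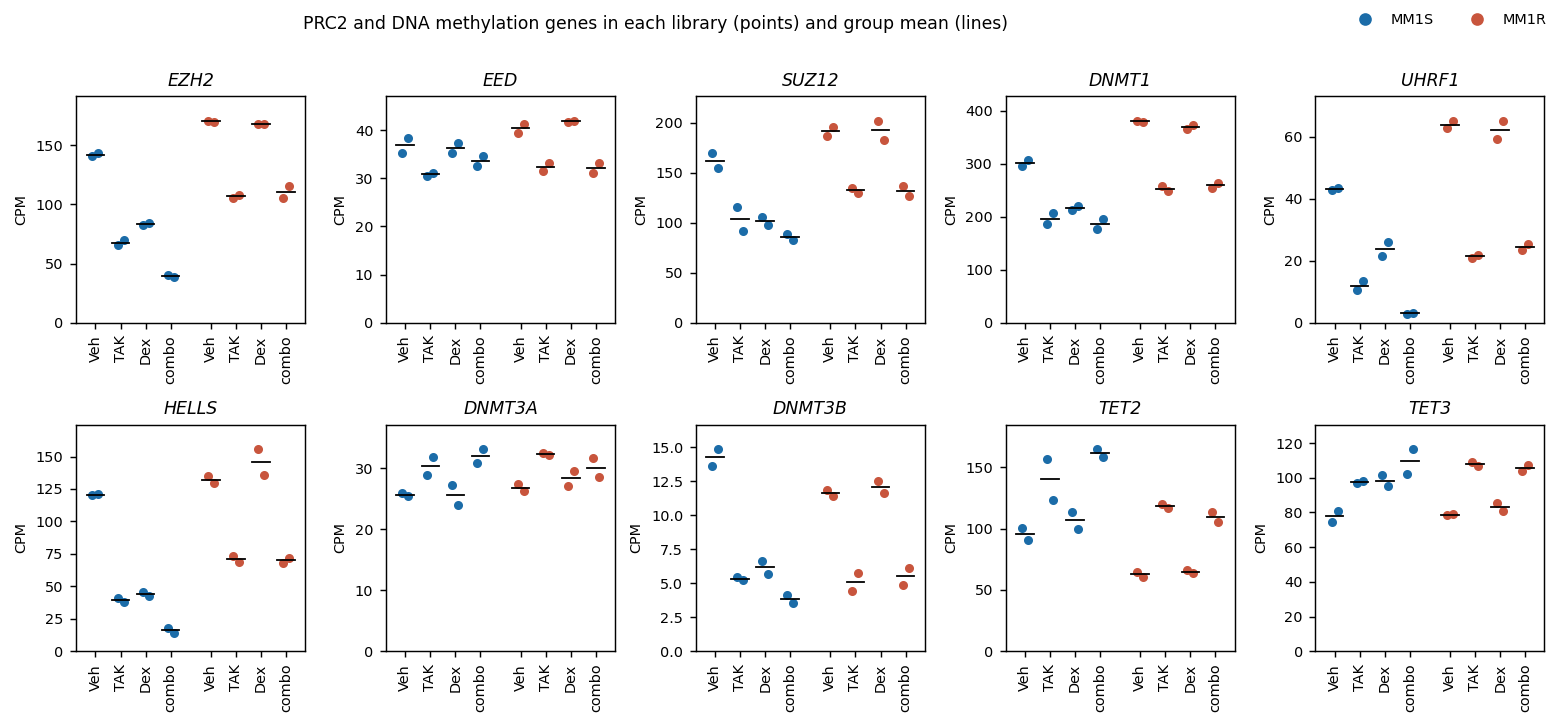
CPM (counts scaled to library size, vertical axis from 0) of each of the 10 genes in every library. Points are libraries, black lines are means of 2 libraries, and groups run Veh, TAK, Dex and combo for MM1S and then MM1R. UHRF1, HELLS and EZH2 step down to 3.05, 16.2 and 39.7 CPM on average in MM1S combo, while TET2 and TET3 are above vehicle wherever TAK-981 was given.

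TAK-981 alone lowered 7 of the 10 genes in both lines and raised the other 3. Those 7 were EZH2, EED, SUZ12, DNMT1, UHRF1, HELLS and DNMT3B, and DNMT3A, TET2 and TET3 were the 3 that rose. Over all tested genes the same test called 49.0% in MM1S, of which 25.2% of genes rose and 23.7% fell. In MM1R it called 53.4%, with 25.8% rising and 27.6% falling. The median log2 fold change of the 10 was -0.63 in MM1S and -0.56 in MM1R, against 0.04 and 0.00 for all genes. Tests were edgeR's quasi-likelihood test with Benjamini-Hochberg adjustment over all 14215 genes, and a gene was called at an adjusted p under 0.05.

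EZH2, the PRC2 methyltransferase, measured 141 and 143 CPM in the MM1S Veh libraries and 65.5 and 70.2 CPM after TAK-981. In MM1R it measured 171 and 170 CPM under vehicle and 106 and 108 CPM after TAK-981. The treated libraries did not overlap vehicle in either line. TAK-981 brought EZH2 to 47.8% of vehicle in MM1S (log2 fold change -1.07 ± 0.062 SE, edgeR adjusted p = 1.14e-10) and to 62.7% in MM1R (-0.67 ± 0.060, edgeR adjusted p = 4.07e-08). The fall was larger in MM1S, by 0.39 ± 0.086 on the log2 scale (line by TAK-981 interaction, edgeR adjusted p = 0.0132). That interaction was called for 2 of the 10 genes and for 4.16% of all genes, and for EZH2 the call was lost, at adjusted p = 0.0504 to 0.0713, without any 1 of the vehicle libraries of either line or of the MM1R TAK libraries.

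SUZ12, the scaffold subunit, gave 169 and 154 CPM in MM1S Veh and 116 and 92.1 CPM in MM1S TAK. In MM1R it gave 187 and 196 CPM under vehicle and 135 and 130 CPM after TAK-981. The libraries of treated and untreated cells were apart in both lines, and SUZ12 fell to 64.4% and 69.1% of vehicle (edgeR adjusted p = 1.04e-05 and 5.97e-05). EED, the subunit that binds the finished H3K27 mark, moved least of the genes that fell. Its MM1S libraries read 35.2 and 38.4 CPM under vehicle and 30.6 and 31.0 CPM after TAK-981, and those of MM1R 39.5 and 41.1 CPM against 31.4 and 33.2 CPM. EED fell to 83.7% of vehicle in MM1S (edgeR adjusted p = 0.00885) and 80.2% in MM1R (edgeR adjusted p = 0.00138). The MM1S call for EED was lost without Veh replicate 2 (adjusted p = 0.101) and in a fit of the compared groups alone (adjusted p = 0.0534).

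The log2 intervals of EZH2 (-1.20 to -0.94) and EED (-0.41 to -0.10) in MM1S did not overlap. Within a library, the ratio of EZH2 to EED in CPM per kb was 2.74 and 2.56 in MM1S Veh, 1.47 and 1.55 in MM1S TAK and 0.858 and 0.764 in MM1S combo. EZH1, the second H3K27 methyltransferase and the usual partner of PRC2 in cells that do not divide, rose with TAK-981. It went from 122 and 120 CPM to 164 and 161 CPM in MM1S, and from 113 and 115 CPM to 166 and 173 CPM in MM1R. EZH1 rose by log2 fold changes of 0.43 in MM1S and 0.58 in MM1R, against the falls of EZH2. The ratio of EZH2 to EZH1 per kb was 1.36 and 1.41 in MM1S Veh and 0.469 and 0.511 in MM1S TAK, so the order of the 2 RNA levels per kb turned over. In MM1R it went from 1.78 and 1.74 to 0.748 and 0.734, with no overlap.

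**Figure D2:**
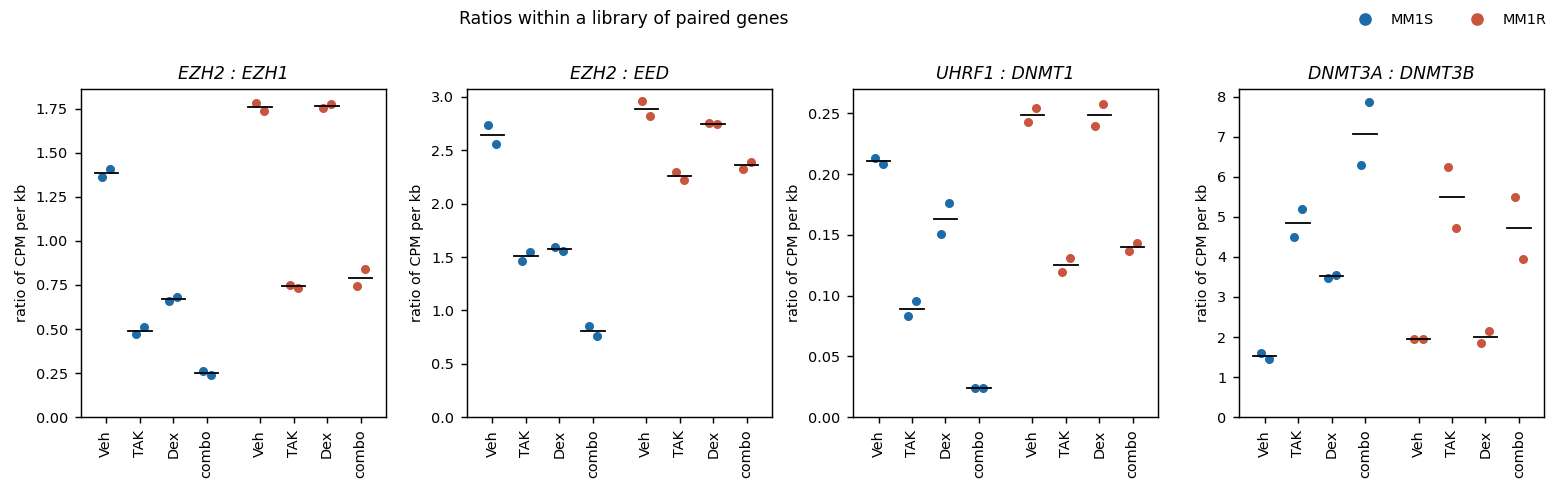
Ratios of CPM per kb between pairs of genes within each library, with points for libraries and lines for group means (vertical axes from 0). EZH2 to EZH1 is above 1 in the vehicle libraries of both lines and below 1 in every library that received TAK-981 or, in MM1S, Dex; DNMT3A to DNMT3B moves the other way.

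Of the 10 tested PRC2 partner genes, 5 fell and 2 rose with TAK-981 in MM1S, and 4 fell and 3 rose in MM1R. Among all genes 23.7% fell and 25.2% rose in MM1S, and 27.6% fell and 25.8% rose in MM1R. The same shares stand beside the counts of the list of 6 genes below. The histone-binding subunits RBBP4 and RBBP7 fell in both lines, by log2 fold changes of -0.52 and -0.74 in MM1S and -0.55 and -0.74 in MM1R. PHF19, an accessory subunit that recruits PRC2, fell by 0.64 and 0.58 on the log2 scale, while PHF1, a related accessory subunit, had changes of 0.61 and 0.26. A list of 6 genes held the H3K27 demethylases KDM6A and KDM6B, the H2A deubiquitinase BAP1, which acts against Polycomb, and ASXL1, ASXL2 and ASXL3. Of these, 3 rose and none fell in MM1S, namely the ASXL genes, and 4 rose and 1 fell in MM1R. In MM1S, KDM6B and BAP1 were not called (edgeR adjusted p = 0.115 and 0.320). In MM1R, KDM6B had a log2 change of 0.25 and BAP1 of -0.17 (edgeR adjusted p = 0.0481 and 0.0313). KDM6A, which removes the H3K27 mark, had a log2 change of 0.16 in MM1S, which was not called, and rose by 0.39 in MM1R.

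UHRF1, the guide of DNMT1, changed most among the 10 with TAK-981. Its MM1S libraries held 42.8 and 43.5 CPM under vehicle and 10.4 and 13.3 CPM after TAK-981, and MM1R held 62.7 and 65.2 CPM against 20.8 and 22.0 CPM. The groups were well apart. UHRF1 fell to 27.6% of vehicle in MM1S (log2 fold change -1.86 ± 0.11, edgeR adjusted p = 1.25e-10) and to 33.5% in MM1R (-1.58 ± 0.099, edgeR adjusted p = 4.04e-10). In all, 0.514% of tested genes had a lower log2 fold change in MM1S and 0.450% in MM1R.

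HELLS, the remodeller that opens chromatin for DNA methylation, read 120 and 121 CPM in MM1S Veh and 41.0 and 37.7 CPM in MM1S TAK. In MM1R it read 135 and 129 CPM and then 73.6 and 68.8 CPM. HELLS fell to 32.6% of vehicle in MM1S and to 53.8% in MM1R (edgeR adjusted p = 3.23e-11 and 5.45e-08). This was the widest gap between the lines among the 10, at 0.72 ± 0.12 on the log2 scale (edgeR adjusted p = 0.00166). DNMT1, the maintenance methyltransferase, gave 296 and 308 CPM in MM1S Veh, 186 and 207 CPM in MM1S TAK, 382 and 379 CPM in MM1R Veh and 258 and 249 CPM in MM1R TAK. It fell by nearly the same share in both lines, to 64.9% and 66.5% of vehicle, and the interval of the difference between lines ran from -0.15 to 0.22. The log2 interval of UHRF1 in MM1S (-2.09 to -1.63) lay below that of DNMT1 (-0.76 to -0.49), and their ratio per kb went from 0.213 and 0.208 to 0.0829 and 0.0953.

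Of 7 tested partners of DNA methylation, 6 fell in MM1S and 5 in MM1R after TAK-981, and none rose. Among all genes 23.7% fell in MM1S and 27.6% in MM1R. CDCA7, which brings HELLS to nucleosomes, fell by 1.93 and 1.45 on the log2 scale, and PCNA, the replication clamp that holds DNMT1, fell by 1.34 and 1.22. LIG1, the replicative ligase that also recruits UHRF1, fell by 1.23 and 1.02. ZBTB24, a transcription factor that activates CDCA7, had a change of -0.03 in each line and was not called.

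The de novo methyltransferases moved in opposite directions. DNMT3B, the rarest transcript of the 10, had 290 counts in each MM1S Veh library. That was 13.6 and 14.9 CPM, against 5.45 and 5.20 CPM after TAK-981. In MM1R it read 11.9 and 11.4 CPM under vehicle and 4.40 and 5.76 CPM after TAK-981. DNMT3B fell to 37.4% of vehicle in MM1S and 43.9% in MM1R (edgeR adjusted p = 8.94e-08 and 1.11e-06). DNMT3A read 25.9 and 25.4 CPM in MM1S Veh and 28.9 and 31.9 CPM in MM1S TAK, and 27.4 and 26.2 CPM against 32.5 and 32.2 CPM in MM1R. Its libraries were apart but the change was small, to 118% (edgeR adjusted p = 0.0300) and 121% of vehicle (edgeR adjusted p = 0.0141). The MM1S call for DNMT3A was lost with DESeq2 (adjusted p = 0.0944), in a fit of the compared groups alone (0.134), by library size scaling (0.0786), and without either MM1S Veh library or MM1S TAK replicate 2 (0.0904 to 0.194). The MM1R call was also lost without either MM1R TAK library or MM1R Veh replicate 2 (adjusted p = 0.0567 to 0.101). DNMT3A and DNMT3B stood at a ratio of 1.61 and 1.45 per kb in MM1S Veh and 4.50 and 5.19 in MM1S TAK.

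TET2, a methylcytosine dioxygenase, rose most among the 10. Its MM1S libraries read 101 and 90.6 CPM under vehicle and 157 and 123 CPM after TAK-981, of which the higher was replicate 1. In MM1R it read 64.6 and 60.4 CPM and then 120 and 117 CPM. The treated libraries were all above vehicle, and TET2 rose to 146% in MM1S and 189% in MM1R (edgeR adjusted p = 0.000104 and 3.86e-07). The MM1S log2 fold change of TET2 was 0.55, and it was 0.36 without MM1S TAK replicate 1 and 0.71 without replicate 2. TET3, its relative, read 74.7 and 81.1 CPM in MM1S Veh, 97.2 and 98.4 CPM in MM1S TAK, 78.3 and 79.0 CPM in MM1R Veh and 109 and 107 CPM in MM1R TAK. TET3 rose to 126% and 137% of vehicle (edgeR adjusted p = 0.000564 and 1.60e-05). A difference between the lines was not called for TET2 (0.37 ± 0.13, edgeR adjusted p = 0.123), but it was without MM1S TAK replicate 1 (0.56, adjusted p = 0.00211) and without the filter (adjusted p = 0.0144).

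Among the 12 partners of demethylation, 3 rose and 4 fell with TAK-981 in each line. Among all genes 25.2% rose and 23.7% fell in MM1S, and 25.8% rose and 27.6% fell in MM1R. TET1, the third family member, rose by log2 fold changes of 0.45 and 0.76, and OGT, the glycosyltransferase that binds TET proteins, by 0.27 and 0.34. TDG, the glycosylase that cuts out oxidised methylcytosine, fell by 0.28 and 0.36, and APEX1, an endonuclease of the same repair route, fell by 0.30 and 0.54. All 3 TET genes thus rose. TDG and APEX1 are examples from the list, and a split between oxidation and excision of methylcytosine was not tested.

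**Figure D3:**
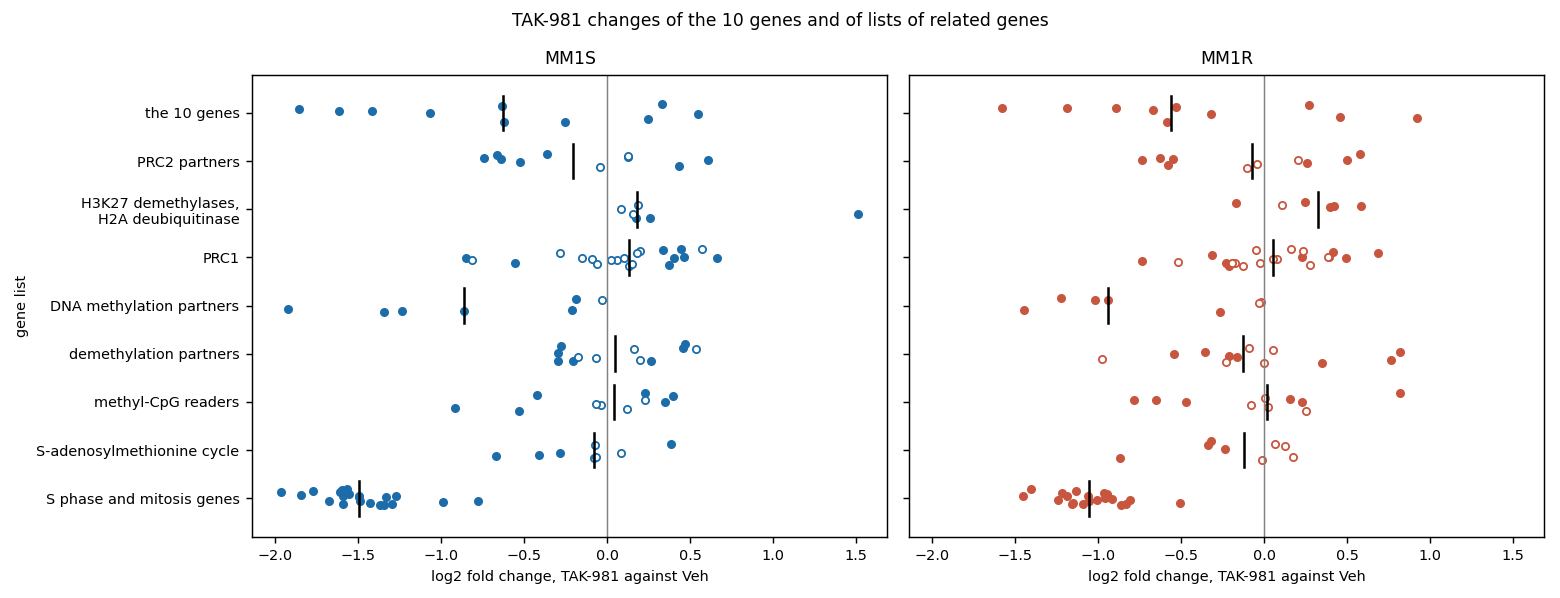
Log2 fold change of TAK-981 against vehicle (horizontal axis) for the 10 genes and for lists of related genes in MM1S and MM1R. Each point is a gene, filled where the adjusted p was under 0.05, and black bars are list medians; all 21 S phase and mitosis genes lie left of 0, with medians of -1.50 in MM1S and -1.05 in MM1R.

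Genes of DNA replication and mitosis moved alongside. All 21 genes of that list fell with TAK-981 in both lines, with median log2 changes of -1.50 in MM1S and -1.05 in MM1R, and examples were MCM4 and TOP2A. Dex lowered all 21 in MM1S (median -0.98) and none in MM1R (median -0.03). Their part in the changes of EZH2, DNMT1, UHRF1, HELLS and the others was not tested. UHRF1, HELLS and DNMT3B changed by amounts inside the range of that list with TAK-981 in MM1S, -1.96 to -0.78, and so did EZH2. SUZ12, DNMT1 and EED changed by less than any gene of the list in that comparison. With TAK-981 in MM1R, where the list ran from -1.46 to -0.51, SUZ12 and DNMT1 were inside its range, EED was above it and UHRF1 below it. With Dex in MM1S, where it ran from -1.52 to -0.50, SUZ12 was inside and DNMT1, at -0.49, just outside.

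Dex alone separated the lines. In MM1S it lowered 6 of the 10 genes, EZH2, SUZ12, DNMT1, UHRF1, HELLS and DNMT3B, and raised TET3, where 42.3% of all genes were called (20.8% higher, 21.5% lower). In MM1R it called none of the 10 and 0.0% of all genes, with 395 of 14215 genes at an unadjusted p under 0.05 in edgeR, and DESeq2 called 0 genes. HELLS went from 120 and 121 CPM in MM1S Veh to 45.6 and 42.5 CPM in MM1S Dex, which is 36.5% of vehicle (edgeR adjusted p = 1.66e-10). In MM1R, HELLS read 135 and 129 CPM under vehicle and 156 and 136 CPM with Dex. EZH2 read 82.3 and 84.5 CPM in MM1S Dex, or 58.7% of vehicle (edgeR adjusted p = 9.47e-09), and 168 CPM in both MM1R Dex libraries.

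DNMT3B fell to 43.3% of vehicle with Dex in MM1S, at 6.63 and 5.70 CPM, and UHRF1 to 55.4%, at 21.6 and 26.2 CPM. SUZ12 (62.8%) and DNMT1 (71.4%) fell less. EED, at 35.3 and 37.2 CPM, overlapped vehicle, and the interval of its log2 change ran from -0.18 to 0.14. DNMT3A and TET2 were not called in MM1S, at 99.7% of vehicle and a log2 change of 0.16, and TET3 rose to 126% (edgeR adjusted p = 0.000551).

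In MM1R the intervals of the Dex changes were narrow. That of EZH2 ran from -0.14 to 0.11, that of DNMT1 from -0.18 to 0.09 and that of HELLS from -0.02 to 0.31. The widest, that of DNMT3B, ran from -0.20 to 0.30. The line by Dex interaction was called for 7 of the 10, 6 with a change higher in MM1R and 1 lower, and for 28.1% of all genes (15.0% higher, 13.1% lower). It was largest for HELLS at 1.60 ± 0.12 (edgeR adjusted p = 9.58e-09) and DNMT3B at 1.26 ± 0.18 (edgeR adjusted p = 3.17e-05), followed by UHRF1, EZH2, SUZ12 and DNMT1 at 0.81, 0.75, 0.68 and 0.44. TET3 differed by -0.26 (edgeR adjusted p = 0.0493), a call that was lost with DESeq2 (adjusted p = 0.0674), by RLE (0.0505) and library size scaling (0.112), without the filter (0.0632) and without either Veh or Dex library of MM1R or replicate 1 of MM1S Veh or Dex (0.0609 to 0.208).

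**Figure D4:**
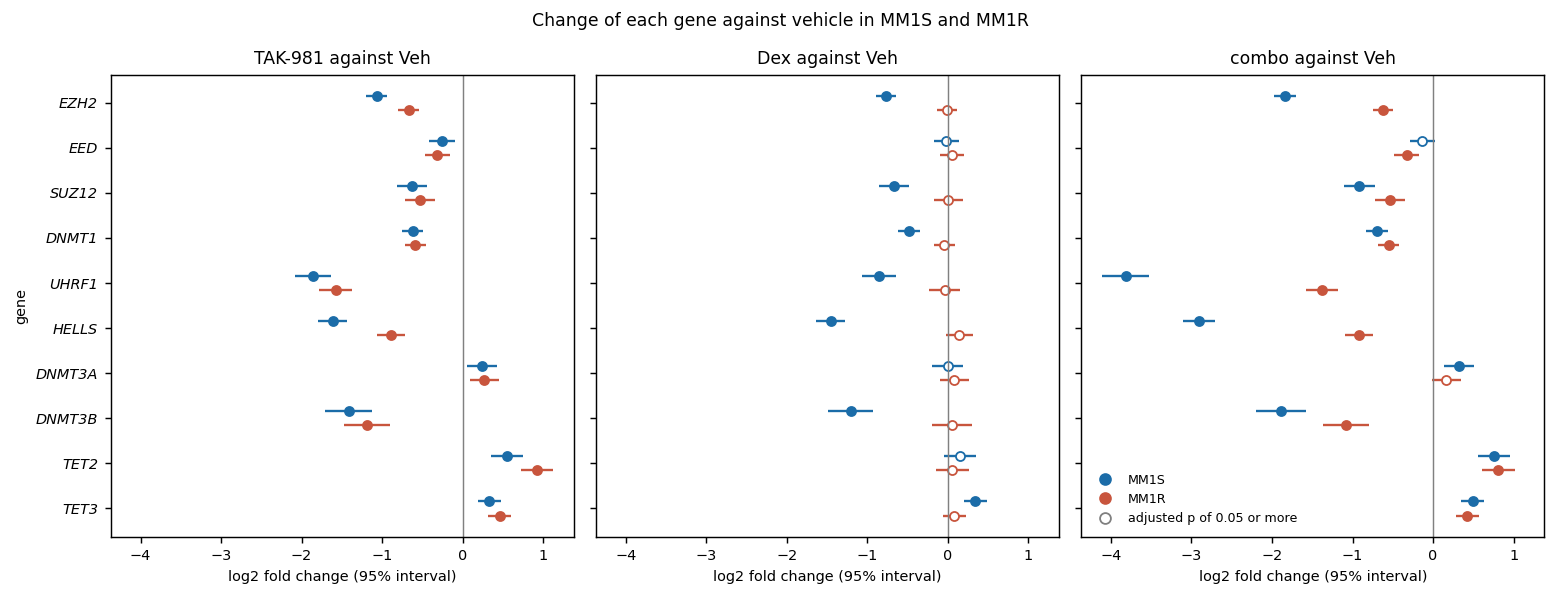
Log2 fold change against vehicle (horizontal axis, with 95% intervals) of the 10 genes under TAK-981, Dex and combo in MM1S (blue) and MM1R (red). Open points had an adjusted p of 0.05 or more; with Dex all 10 points of MM1R are open and near 0, and in combo UHRF1 and HELLS of MM1S reach -3.82 and -2.91.

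In combo against vehicle, 6 of the 10 fell and 3 rose in MM1S, where 60.3% of all genes were called (30.8% higher, 29.5% lower). In MM1R 7 fell and 2 rose, where 51.5% were called (24.8% higher, 26.7% lower). All comparisons with vehicle within a line share the same vehicle libraries. UHRF1 read 2.91 and 3.19 CPM in MM1S combo, from 47 and 58 counts. Both values lay far under every other group, at 7.10% of vehicle (log2 fold change -3.82 ± 0.14, edgeR adjusted p = 3.77e-14), and 0.183% of tested genes had a lower change. HELLS read 18.0 and 14.3 CPM, or 13.3% of vehicle, and EZH2 40.8 and 38.6 CPM, or 27.9% of vehicle. DNMT3B read 4.15 and 3.57 CPM, or 27.1%, and SUZ12 fell to 53.0% and DNMT1 to 61.6%. EED stood at 32.5 and 34.6 CPM, just under the vehicle libraries, and was not called (91.3% of vehicle, edgeR adjusted p = 0.142). TET2 rose to 169%, TET3 to 141% and DNMT3A to 125% of vehicle, although the DNMT3A call was lost without MM1S combo replicate 2 (adjusted p = 0.0548).

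In MM1R the combo libraries lay near those of TAK-981 alone. UHRF1 read 23.6 and 25.6 CPM, HELLS 68.0 and 72.0 CPM and EZH2 105 and 116 CPM, which were 38.5%, 52.9% and 65.0% of vehicle. DNMT3A read 31.7 and 28.5 CPM and was not called (edgeR adjusted p = 0.117), except in a fit of the compared groups alone (adjusted p = 0.0187). None of the 10 was called between combo and TAK-981 in MM1R by edgeR, where 0.0% of all genes were, with 214 of 14215 at an unadjusted p under 0.05 and 0 genes called by DESeq2. The intervals of those differences ran from -0.08 to 0.18 for EZH2 and from -0.02 to 0.42 for UHRF1.

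In MM1S, combo was lower than TAK-981 alone for 5 of the 10 (35.1% of all genes called, 20.6% lower). UHRF1 was lowered further to 25.8%, HELLS to 40.9% and EZH2 to 58.5% of the level with TAK-981 (edgeR adjusted p = 1.86e-08, 9.78e-09 and 3.14e-08). SUZ12 and DNMT3B were called at adjusted p = 0.0219 and 0.0425, and neither call held in a fit of the compared groups alone (0.116 for both), which left 3 of the 10. Neither held by library size scaling (0.0686 and 0.0719), and that of DNMT3B was lost with DESeq2 (0.101). Both calls were also lost without either MM1S combo library or without MM1S TAK replicate 1, and that of DNMT3B without TAK replicate 2 (0.0525 to 0.342 for SUZ12 and 0.0647 to 0.250 for DNMT3B). DNMT1 read 176 and 196 CPM in combo against 186 and 207 CPM with TAK-981, with overlap. TET2 was not called (0.21, edgeR adjusted p = 0.0926), but without MM1S TAK replicate 1 the difference was 0.39 (adjusted p = 0.000571), and it was called without the filter (0.0234). TET3 was not called (0.16, edgeR adjusted p = 0.0680) but was by library size scaling (0.0261) and without combo replicate 1 (0.0180).

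Against Dex alone, combo lowered 6 and raised 2 of the 10 in MM1S, where 47.6% of all genes were called (22.2% higher, 25.4% lower). It lowered 7 and raised 2 in MM1R, where 48.4% were called (23.1% higher, 25.3% lower). UHRF1 showed the widest difference, at 12.8% of the Dex level in MM1S and 39.6% in MM1R. DNMT1 and SUZ12 stood at 86.2% and 84.4% of the Dex level in MM1S (edgeR adjusted p = 0.0100 and 0.0340) and at 70.3% and 68.6% in MM1R. The MM1S calls were lost without MM1S combo replicate 1 or Dex replicate 2 for DNMT1 (0.0630 to 0.136) and without either combo library or Dex replicate 1 for SUZ12 (0.0637 to 0.186). They were lost as well in a fit of the compared groups alone for DNMT1 (0.0619) and by library size scaling for SUZ12 (0.0726). Of the 2 genes raised in MM1S, TET2 and DNMT3A, the DNMT3A call was lost without combo replicate 2 or Dex replicate 2 (0.0641 to 0.0936). TET3 was not called there (edgeR adjusted p = 0.0668) but was by library size scaling (0.0441) and without combo replicate 1 (0.0167).

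Whether the drugs added up was asked by the TAK-981 by Dex interaction, the combo change less the sum of the single-drug changes on the log2 scale. In MM1S it was called for 4 of the 10, 3 higher and 1 lower than the sum, and for 14.9% of all genes (5.47% higher, 9.48% lower). UHRF1 was the one below it: the single-drug changes summed to -2.71 and combo gave -3.82, a difference of -1.10 ± 0.19 (edgeR adjusted p = 0.000946). DNMT1 summed to -1.11 and gave -0.70, a difference of 0.41 ± 0.090 (edgeR adjusted p = 0.00503). DNMT3B (0.74 ± 0.22) and SUZ12 (0.39 ± 0.13) were also less lowered than the sum, at edgeR adjusted p = 0.0314 and 0.0466. Each of those 2 calls was lost without either Veh library, combo replicate 1, Dex replicate 2 or TAK replicate 2 of MM1S, and that of SUZ12 also without combo replicate 2 (0.0550 to 0.161 for DNMT3B and 0.0540 to 0.188 for SUZ12). That of DNMT3B was lost with DESeq2 as well (0.0571).

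EZH2 followed the sum closely, at -1.83 summed and -1.84 in combo, and the interval of the difference ran from -0.19 to 0.18. HELLS summed to -3.07 and gave -2.91 (edgeR adjusted p = 0.436). In a fit of the compared groups alone UHRF1 was the 1 of the 10 still called, and between 2 and 4 of the 10 were called when 1 library was left out. In MM1R the interaction called none of the 10 and 0.0% of all genes, with 400 of 14215 at an unadjusted p under 0.05 in edgeR and 0 genes called by DESeq2. Of the S phase and mitosis genes, 10 of 21 were lower than the sum in MM1S and 1 was higher, and their part in the UHRF1 difference was not tested.

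**Figure D5:**
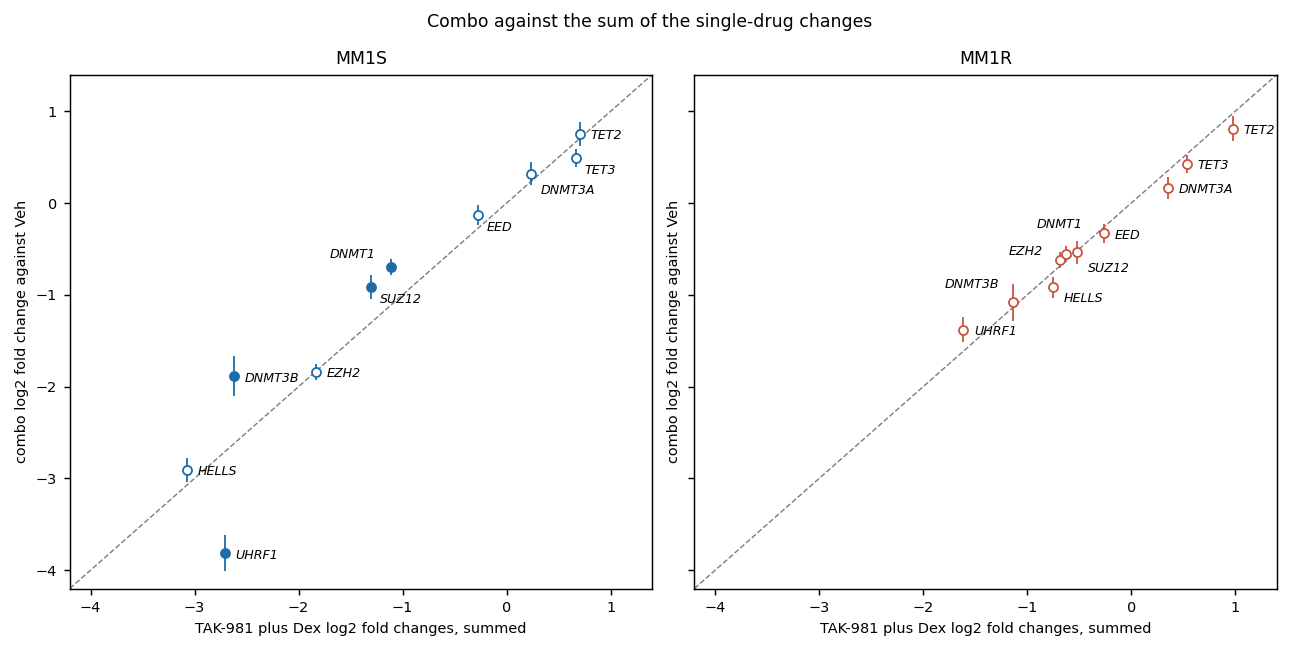
Log2 fold change of combo against vehicle (vertical axis) plotted against the sum of the TAK-981 and Dex changes (horizontal axis) for the 10 genes in MM1S and MM1R, with vertical bars of 1 SE of the difference. The dashed line marks equality and filled points had an interaction with adjusted p under 0.05; UHRF1 of MM1S lies below the line at -3.82 against -2.71, and EZH2 lies on it.

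The lines already differed under vehicle. MM1R was higher than MM1S for UHRF1 (148%), DNMT1 (126%), EZH2 (120%) and SUZ12 (118%) and lower for TET2 (65.3%), where 48.2% of all genes were called (25.6% higher, 22.6% lower). For TET2 the MM1R libraries, at 64.6 and 60.4 CPM, were both under those of MM1S, at 101 and 90.6 CPM (edgeR adjusted p = 5.21e-05). SUZ12 was called at edgeR adjusted p = 0.0282 and lost the call by library size scaling (0.131) and without either MM1R Veh library or MM1S Veh replicate 2 (0.0585 to 0.219). DNMT3B lay at 81.8% of MM1S and just missed the threshold (edgeR adjusted p = 0.0516), but it was called by library size scaling (0.0237), without the filter (0.0453) and in a fit of the compared groups alone (0.00328). HELLS, at 109% of MM1S, was called only in that last fit (adjusted p = 0.0228). Of the 21 S phase and mitosis genes 19 were also higher in MM1R, and their part in these differences was not tested.

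In the order of mean levels over the 8 groups, EZH2, DNMT1 and UHRF1 were highest in MM1R Veh, followed by MM1R Dex and MM1S Veh, and lowest in MM1S combo. HELLS and SUZ12 were also lowest in MM1S combo but highest in MM1R Dex, which for SUZ12 overlapped MM1R Veh. DNMT3B was highest in MM1S Veh and lowest in MM1S combo, and EED ran from MM1R Dex at 41.8 CPM to MM1S TAK at 30.8 CPM. For EZH2 each group in that order stood apart from the next except MM1R combo and MM1R TAK, whose libraries overlapped. For DNMT1 that pair overlapped too, and so did MM1S TAK and MM1S combo at the low end. TET2 had the ends of the EZH2 order reversed, from MM1S combo at 162 CPM to MM1R Veh at 62.5 CPM. Its MM1S Dex mean was below those of MM1R TAK and MM1R combo, and its MM1S Dex and MM1S Veh libraries overlapped. DNMT3A spanned 23.9 to 33.2 CPM over the 16 libraries, and 6 of the 7 neighbouring pairs of groups in its order overlapped.

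Over the 16 libraries the log2 CPM of EZH2 and HELLS had a Pearson correlation of 0.99 (0.99 within MM1S and 0.98 within MM1R, 8 libraries each), and that of EZH2 and TET2 was -0.896 (-0.907 within MM1S and -0.995 within MM1R). These libraries share groups and treatments, so the values are descriptions. By Pearson correlation, the tested genes most like EZH2 over the 16 libraries were CHAF1B, ATAD2 and WDHD1, with values between 0.997 and 0.998. By rank (Spearman) correlation these stood at places 111, 415 and 295, so the choice depends on the measure. KIF20B for HELLS and CIDEB for EED stood at place 1 by both. Nearest to UHRF1 were MCM4, TYRO3 and HIST2H2AB (0.994 to 0.996), to HELLS KIF20B, ECT2 and ATAD5 (0.997) and to DNMT1 MCM7, RNF168 and MDC1 (0.985 to 0.991). For SUZ12 they were DBF4, SEC24D and CKS2 (0.986 to 0.991), for DNMT3B CADPS2, GNAZ and RAVER2 (0.968 to 0.979) and for EED CIDEB, AGAP3 and SMYD2 (0.949 to 0.964). TET2 was nearest to ZNF525, ARID4B and NR1D2 (0.990 to 0.991) and TET3 to IQSEC1, IKZF3 and SIPA1L3 (0.959 to 0.969).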

How the data were processed

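Total RNA from the cell lines was depleted of ribosomal RNA and sequenced. The authors deposited raw read counts per gene for 16 libraries with gene positions and lengths in 1 table. The submitters' processing notes name bcl2fastq 2.18.0.12, STAR 2.6.0, HTSeq 0.6.0, edgeR 3.28.1 and the build hg19; the strand setting and annotation are not given in the sources used here. Per library, 15707587 to 24796539 counts fell on genes.

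Counts of 23354 genes were filtered with filterByExpr, leaving 14215, scaled by TMM and fitted over all 8 groups (8 residual degrees of freedom) with the robust quasi-likelihood model of edgeR 4.0.16 (R 4.3.3, limma 3.58.1). 15 contrasts were tested, each with Benjamini-Hochberg adjustment over all genes at 0.05. CPM used TMM library sizes, and CPM per kb divided by the deposited length. Log2 CPM for correlations used a prior count of 2. The code was tested on simulated data.

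Alternatives were RLE and library size scaling, no filter, DESeq2 1.42.0, a fit of the compared groups alone, a replicate block, and leaving out each library. Same-numbered MM1S libraries deviated together with correlations of 0.0162 to 0.263 and MM1R libraries with -0.0134 to 0.0821, and the labels tie no number to a shared batch, so the main fit has no block.

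The named genes are the 10, their 3 nearest genes by Pearson correlation (those of DNMT3A are not reported here), genes of the Polycomb and methylation lists, and up to 4 of each other list with the smallest p under TAK-981. The 10 genes and all lists were chosen with earlier results of these data known. Promoters came from RefSeq on GRCh38.p14, matched by symbol and not by position, and all 10 genes had a window.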

Additional observations from a re-analysis of the deposited data

Results flagged for a closer look

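These results differ between the lines by a test of the difference itself, the line interaction in edgeR, which is the MM1R change less the MM1S change on the log2 scale. With TAK-981 they are HELLS at 0.72 and EZH2 at 0.39. With Dex they are HELLS at 1.60, DNMT3B at 1.26, UHRF1 at 0.81, EZH2 at 0.75, SUZ12 at 0.68 and DNMT1 at 0.44, each a fall in MM1S with no call in MM1R, and TET3 at -0.26, a rise in MM1S with no call in MM1R. The EZH2 call with TAK-981 was lost in 6 fits that left 1 library out. The TET3 call was lost in 6 such fits, with DESeq2, by RLE and library size scaling, and without the filter. NR3C1 expression and the changes of the S phase and mitosis genes differ between the same groups, and their part in these line differences was not tested.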

How the results depend on the processing

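Over 1660 values of the 10 genes under the alternatives, 1573 kept their side of the threshold, 68 lost a call and 19 gained one. No value that was called reversed its direction. Direction was not compared where neither fit called the gene, and some such values changed sign. With Dex in MM1S, for example, the DNMT3A log2 change ran from -0.10 to 0.08 when 1 library was left out. The number of the 10 called changed by over 1.5 times in 3 comparisons. For combo against TAK-981 in MM1S it was 5 and became 3 in a fit of the compared groups alone, and 3 to 4 without 1 library. For the TAK-981 by Dex interaction in MM1S it was 4 and became 1 in the fit of the compared groups alone, and 2 to 4 without 1 library. The line by TAK-981 interaction called 2, and 1 to 3 without 1 library. These fits hold fewer libraries, and the cause of the changes was not tested.

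Counts over all genes moved likewise. The line by TAK-981 interaction called 592 genes, 1313 without the filter, 2061 with the replicate block and 200 to 2292 without 1 library, the highest without MM1S TAK replicate 1. The TAK-981 by Dex interaction in MM1S called 2125, 3579 with the replicate block, 779 from the compared groups alone and 1044 to 3724 without 1 library, again highest without MM1S TAK replicate 1. In MM1R, comparisons with 0 calls gave 30 (Dex), 9 (combo against TAK-981) and 19 (interaction) without the filter, up to 9, 1 and 1 without 1 library, and 3 for combo against TAK-981 from the compared groups alone. The replicate block added 6 calls among values of the 10 genes and removed none, namely TET2 for Dex against vehicle (adjusted p = 0.0285) and combo against TAK-981 in MM1S (0.00270) and for the line by TAK-981 interaction (0.00289), TET3 for combo against Dex and against TAK-981 in MM1S (0.0299 and 0.0273), and DNMT3B between the lines under vehicle (0.0307). No scaling moved the median of all genes by over 0.1. DNMT3B in MM1S combo rests on 65 and 67 counts and UHRF1 on 47 and 58, which limits their precision.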

Other observations

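Genes under Polycomb or DNA methylation in many somatic cells were mostly unread in these lines. Of 39 HOX cluster genes, 28 had at most 3 counts in each of the 16 libraries and 4 were tested, and of 20 germline genes 13 had at most 3 counts and 4 were tested. With TAK-981, 1 HOX gene fell in MM1S, and 1 rose and 1 fell in MM1R, and of the germline genes 2 fell in MM1S and 2 fell and 1 rose in MM1R. Beside these counts and those of the inhibitors below, 49.0% of all genes were called in MM1S and 53.4% in MM1R. HOXB7 fell by 0.84 on the log2 scale in both lines and MAGEA1, a cancer-testis gene, fell by 0.56 in MM1S and 0.69 in MM1R. CDKN1C, an inhibitor of cyclin-dependent kinases that EZH2 silences in many tumours, was 1 of 4 such inhibitors tested, of which 1 rose and 1 fell with TAK-981 in MM1S and 2 rose in MM1R. CDKN1A fell by 0.24 in MM1S, and CDKN2B rose by 0.79 in MM1R. CDKN1C read 8.13 and 8.41 CPM in MM1S Veh, 11.8 and 16.6 CPM with TAK-981 and 3.84 and 4.44 CPM with Dex, so the drugs moved it in opposite directions there. TAK-981 raised CDKN1C by log2 fold changes of 0.78 in MM1S and 1.67 in MM1R (edgeR adjusted p = 0.000115 and 2.23e-06), and Dex lowered it to 50.1% of vehicle in MM1S (edgeR adjusted p = 8.19e-05).

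Of 21 tested genes of PRC1, the complex that ubiquitinates histone H2A, 6 rose and 2 fell with TAK-981 in MM1S. In MM1R 4 rose and 4 fell. For this list and the methyl-CpG and S-adenosylmethionine lists below, the shares of all genes were 25.2% rising and 23.7% falling in MM1S. They were 25.8% and 27.6% in MM1R. CBX7, a reader of the H3K27 mark, rose by log2 fold changes of 0.66 and 0.42. Of 10 methyl-CpG readers, 3 rose and 3 fell in each line, with MBD2 falling by 0.92 and 0.78 on the log2 scale. Of 8 genes of the S-adenosylmethionine cycle, which supplies the methyl donor, 1 rose and 3 fell in MM1S and 4 fell in MM1R. AHCY, which clears the product that inhibits methyltransferases, fell by 0.67 and 0.87. PCGF3, a PRC1 subunit singled out after its values were seen, had 318 and 293 counts in the MM1S Veh libraries and at most 5 counts in each of the 8 MM1R libraries.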
